A study of Mus musculus with 8 samples.

Results

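The 10 genes described here are 6 ligands of the transforming growth factor beta (TGF-beta) family (Tgfb1, Tgfb2, Tgfb3, Bmp2, Bmp4 and Bmp7), the BMP antagonist gene Grem1, and the target genes Id1, Id2 and Id3. They were chosen by name, as every non-control probe whose systematic name is a RefSeq transcript of one of them, which gave 12 of the 55681 distinct probes on the array. Of these, 11 were bright enough to be tested and they covered all 10 genes. The tested samples were 4 of DOT1-null (KO) and 4 of wildtype (WT) ureteric bud cells from kidneys of C57BL/6 mice at postnatal day 0. In the KO mice Dot1, which encodes a histone H3 methyltransferase, had been removed conditionally in cells positive for Hoxb7, and the cells of both groups were sorted for green fluorescent protein. The labels give 1 preparation per sample, without its animals or litter and without saying whether WT mice carried the recombinase. Each array held 1 sample in Cy5 and, in Cy3, the RNA of the third WT sample (WT 3), and each value below is the log2 ratio of Cy5 to Cy3 unless another quantity is named.

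TGF-beta ligands bind a pair of receptor kinases and act through Smad2 and Smad3, whereas bone morphogenetic proteins (BMPs) act through Smad1, Smad5 and Smad9, and both pathways share Smad4. In the embryonic kidney, BMP4 in the tissue around the nephric duct holds back budding, and the secreted protein Gremlin-1, encoded by Grem1, binds BMPs and allows the ureteric bud to grow out and branch. Id genes are induced by BMP signalling in many cells and encode helix-loop-helix proteins that lack a DNA-binding region and hold back other helix-loop-helix factors.

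Promoters are shown for both ligands that passed the test when 1 KO array was left out (Tgfb1 and Tgfb2, described below) and for Id2 and Id3, the BMP targets among the matched genes. They are the 250 bases before the RefSeq transcription start in GRCm38.p6, 5′ to 3′. Capitals mark CAGAC (a Smad box), GGCGCC (bound by BMP Smads), CCGCCC (a GC box), CACGTG (an E-box) and TATAAA, on either strand.
Tgfb1 promoter, chr7:25686752-25687001, plus strand: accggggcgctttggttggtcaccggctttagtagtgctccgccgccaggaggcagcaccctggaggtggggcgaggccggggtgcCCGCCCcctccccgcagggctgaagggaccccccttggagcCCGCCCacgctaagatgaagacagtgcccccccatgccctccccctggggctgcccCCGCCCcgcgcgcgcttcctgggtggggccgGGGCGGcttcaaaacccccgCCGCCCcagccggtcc
Tgfb2 promoter, chr1:186705990-186706239, minus strand: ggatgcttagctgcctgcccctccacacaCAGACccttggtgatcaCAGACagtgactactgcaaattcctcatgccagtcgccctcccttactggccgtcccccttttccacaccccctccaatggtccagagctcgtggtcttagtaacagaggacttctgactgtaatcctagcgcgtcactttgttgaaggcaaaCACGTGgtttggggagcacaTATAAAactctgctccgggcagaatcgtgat
Id2 promoter, chr12:25096093-25096342, minus strand: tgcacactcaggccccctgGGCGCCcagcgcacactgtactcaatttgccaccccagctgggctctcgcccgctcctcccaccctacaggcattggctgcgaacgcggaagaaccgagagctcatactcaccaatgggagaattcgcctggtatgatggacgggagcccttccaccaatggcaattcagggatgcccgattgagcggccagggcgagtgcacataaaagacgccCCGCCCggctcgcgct
Id3 promoter, chr4:136143572-136143821, plus strand: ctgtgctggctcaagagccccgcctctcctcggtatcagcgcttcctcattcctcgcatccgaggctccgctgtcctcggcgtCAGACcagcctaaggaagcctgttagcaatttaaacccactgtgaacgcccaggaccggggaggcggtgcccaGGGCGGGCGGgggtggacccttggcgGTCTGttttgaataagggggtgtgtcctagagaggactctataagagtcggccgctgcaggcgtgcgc
The Tgfb1 sequence held 5 matches to CCGCCC and none to the other 4 motifs, with a GC content of 75.2%. The Tgfb2 sequence, at 53.6% GC, held 2 matches to CAGAC, 1 to CACGTG and 1 to TATAAA. The Id2 sequence held 1 match to GGCGCC and 1 to CCGCCC, and the Id3 sequence 2 to CAGAC and 2, overlapping each other, to CCGCCC on the other strand. Of 32851 promoter windows of this length, 42.2% held CAGAC, 9.59% GGCGCC, 32.7% CCGCCC, 6.02% CACGTG and 12.4% TATAAA. A match is a description of the letters. Promoters were matched for 6 of the 10 genes, including Bmp4 and Grem1, but not for Tgfb3, Bmp2, Bmp7 and Id1.

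The KO arrays were not alike. On the first principal component of the 28477 probes with values on every array, which held 55.6% of the variance, KO 1, KO 3 and KO 4 lay between 27.14 and 54.76, KO 2 at -21.89 and the WT arrays between -28.65 and -20.70. KO 3 stood apart in brightness, with 95.2% of spots well above background in Cy5, against 59.1% to 68.9% on the other KO arrays and 52.4% to 56.2% on the WT arrays. It also had 7665 spots marked as outliers, against 175 to 216 on the others. Slide row cannot be told apart from genotype, as each row held the arrays of 1 group. The Dot1l probe had a log2 difference of 0.18 ± 0.11 (SE; adjusted p = 0.341, limma). The sources used here do not say whether that probe lies in the removed part, so it does not check the labels. All 15 ureteric bud marker probes were well above background on every array. Markers of stroma (9 of 11 probes), nephron progenitors (7 of 7), endothelium (8 of 8) and leukocytes (11 of 11) were too.

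No member probe passed the test between KO and WT with all arrays. In limma's test, 0 of 11 member probes had an adjusted p under 0.05, against 0.00632% of all 31667 probes tested, both of those called being lower in KO. At an unadjusted p under 0.05 there were 4 member probes, 3 higher (both of Tgfb2, and Id2) and 1 lower (Bmp7), or 36.4% against 23.8% of all probes. The log2 differences were above 0 for 5 member probes and below 0 for 6, with a median of -0.00411, beside -0.02 over all probes. Without KO 2 limma called 2 member probes, Tgfb1 lower and the dimmer probe of Tgfb2 higher, or 18.2% of 11 against 21.1% of all probes (9.71% higher and 11.4% lower). With KO 3 left out as well it called 3, adding the brighter Tgfb2 probe, or 27.3% against 23.5% (13.2% higher and 10.3% lower). In both of these fits the members' shares were near those of all probes. KO 2 lay among the WT arrays on the first principal component of these same values. A fit without it is therefore not independent of the values it tests. Leaving out any other single array called 0 member probes.

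**Figure D1:**
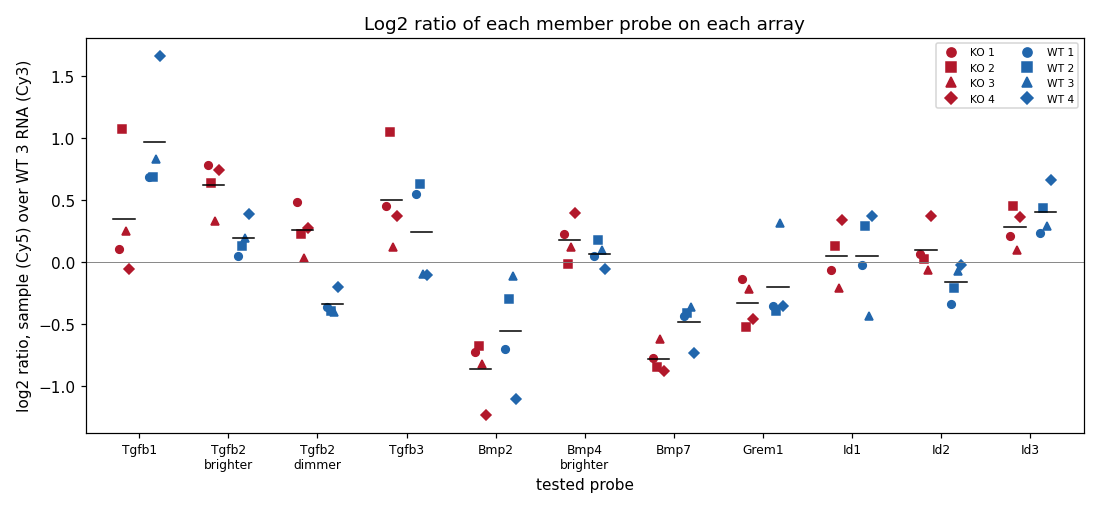
Log2 ratio of Cy5 to Cy3 (vertical axis) for each of the 11 tested member probes (horizontal axis), with KO arrays left of WT arrays, marker shape for the replicate number and a bar at the group mean. The dimmer Tgfb2 probe is the one whose groups do not overlap, with KO arrays from 0.03 to 0.49 and WT arrays from -0.40 to -0.20.

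Tgfb2 was the ligand with the smallest adjusted p, and both of its probes (NM_009367) leaned to higher values in KO without passing the test. The brighter probe had log2 ratios of 0.78, 0.64, 0.33 and 0.74 on KO 1 to KO 4, against 0.05, 0.13, 0.20 and 0.39 on WT 1 to WT 4. Only KO 3 fell within the WT range, below WT 4. Its means were 0.62 ± 0.21 in KO and 0.19 ± 0.14 in WT (SD, n = 4 each), a log2 difference of 0.43 ± 0.12 (SE; adjusted p = 0.112, limma). The dimmer probe had 0.49, 0.23, 0.03 and 0.28 on KO 1 to KO 4, against -0.36, -0.39, -0.40 and -0.20 on WT 1 to WT 4. Every KO array was above every WT array, as for 11.4% of the 28477 probes with complete values (3.58% of them higher in KO). Its log2 difference was 0.60 ± 0.11 (SE; adjusted p = 0.0985, limma), a 1.51-fold difference with a 95% interval of 0.35 to 0.84 on the log2 scale. Without KO 2 it passed at 0.60 ± 0.12 (SE; adjusted p = 0.00883, limma). The brighter probe stood at 0.43 there (limma adjusted p = 0.0503). Without KO 2 and KO 3 the log2 differences were 0.57 at the brighter and 0.72 at the dimmer probe (limma adjusted p = 0.00904 and 0.00290).

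The size of the Tgfb2 difference depended on the dye channel read. Cy3 held the same WT 3 RNA on all arrays, yet at the dimmer probe its quantile-normalised log2 intensity averaged 6.85 on the KO arrays and 7.24 on the WT arrays, a difference of -0.39 ± 0.21 (SE; adjusted p = 0.711, limma). In Cy5 alone, which holds the samples, that probe averaged 8.71 on the KO arrays and 8.72 on the WT arrays, a log2 difference of -0.01 ± 0.44 (SE; adjusted p = 0.990, limma). At the brighter probe the log2 difference was 0.32 ± 0.20 in Cy5 alone and -0.17 ± 0.13 in Cy3 alone (SE). The raw Cy5 signal of the dimmer probe, before any normalisation, was 631, 518, 669 and 567 on KO 1 to KO 4 and 339, 256, 349 and 359 on WT 1 to WT 4. The median raw Cy5 signal of all spots did not overlap between groups either, at 122, 137, 636 and 126 on KO 1 to KO 4 and 108, 95, 99 and 93.5 on WT 1 to WT 4. KO 3, the array that stood apart in brightness, was lowest of all 8 at both Tgfb2 probes in Cy3 alone. This was not particular to Tgfb2, as the same held for Tgfb1, Tgfb3, Bmp2, the brighter Bmp4 probe, Grem1 and Id2. At the dimmer Tgfb2 probe the log2 intensity of KO 3 was 6.16 in Cy3 and 7.19 in Cy5. The other KO arrays lay there between 6.99 and 7.19 in Cy3 and between 9.01 and 9.33 in Cy5. The WT arrays lay between 7.16 and 7.34 in Cy3 and between 8.55 and 8.94 in Cy5, so the other 3 KO arrays stood above all WT arrays in Cy5.

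Tgfb1 (NM_011577) leaned the other way. Its log2 ratios were 0.10, 1.07, 0.25 and -0.05 on KO 1 to KO 4, against 0.69, 0.68, 0.83 and 1.66 on WT 1 to WT 4. KO 1, KO 3 and KO 4 lay below every WT array, and KO 2 lay above all of them but WT 4. The means were 0.34 ± 0.50 in KO and 0.97 ± 0.47 in WT (SD, n = 4 each), a log2 difference of -0.62 ± 0.28 (SE; adjusted p = 0.213, limma). Without KO 2 the log2 difference was -0.86 ± 0.23 and passed (SE; adjusted p = 0.0273, limma), and without KO 2 and KO 3 it was -0.94 ± 0.27 (SE; adjusted p = 0.0379, limma). Without WT 4 it was -0.39 (limma adjusted p = 0.393). In cells sorted in bulk, fewer cells of a type and less RNA per cell cannot be told apart. TGF-beta 1 is also made by leukocytes, and 8 of 11 leukocyte marker probes had differences below 0, with a median of -0.06. Over all probes tested, 17225 of 31667 had differences below 0, with a median of -0.02. Of the 7 leukocyte probes with complete values, 3 did not overlap, all lower in KO, against 7.82% of all complete probes not overlapping and lower. The summed quantile-normalised Cy5 intensity of those 7 ranged from 5696 to 9783 on the KO arrays and from 8949 to 16519 on the WT arrays, and all 11 probes were well above background on every array. By array, the leukocyte medians were -0.13, -0.24, -0.28 and -0.19 on KO 1 to KO 4 and 0.14, -0.04, 0.04 and -0.21 on WT 1 to WT 4. Among WT arrays the leukocyte median was lowest on WT 4, where Tgfb1 was highest. On KO 2, the KO array with the highest Tgfb1, it was -0.24. The medians of 8 endothelium probes, another source of this ligand, were 0.28, 0.48, 0.40 and 0.29 on KO 1 to KO 4 and -0.13, -0.19, 0.23 and 1.05 on WT 1 to WT 4. The endothelium medians were highest on KO 2 among KO arrays and on WT 4 among WT arrays, as was Tgfb1. Of the 8 probes, 6 had differences above 0, against 14442 of 31667 over all probes. The summed quantile-normalised Cy5 intensity of the endothelium probes ranged from 64470 to 75798 on the KO arrays and from 45073 to 96168 on the WT arrays. Of these 8 probes 0 did not overlap, against 11.4% of all complete probes. Stroma medians, given with Tgfb3 below, were high on KO 2, WT 1, WT 2 and WT 4. The part of these cells in the Tgfb1 values was not tested.

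Tgfb3 (NM_009368) varied more within groups than between them. Its log2 ratios were 0.45, 1.05, 0.12 and 0.37 on KO 1 to KO 4, against 0.55, 0.63, -0.09 and -0.10 on WT 1 to WT 4. The WT arrays fell into a high and a low pair, with KO 1, KO 3 and KO 4 between them. The log2 difference was 0.25 ± 0.23 (SE; adjusted p = 0.534, limma). It was 0.068 without KO 2, 0.14 without WT 3, 0.13 without WT 4 and 0.38 without WT 2. The medians of 10 stroma probes, which mark the mesenchyme around the bud, were -0.07, 1.32, 0.23 and 0.58 on KO 1 to KO 4 and 1.09, 1.08, 0.16 and 0.99 on WT 1 to WT 4. KO 2 was highest and WT 3 low for both, whereas WT 4 was high for stroma and low for Tgfb3. Of the stroma probes 9 of 10 had differences below 0, against 17225 of 31667 over all probes. The summed quantile-normalised Cy5 intensity of the stroma probes ranged from 12191 to 40865 on the KO arrays and from 15861 to 40564 on the WT arrays. The part of these cells in the Tgfb3 values was not tested.

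The Tgfb1 and Tgfb3 probes were each printed at 10 spots per array, which shows the error of reading a single array. Over those spots the SD of the log2 ratio was between 0.06 and 0.11 for Tgfb1 and between 0.05 and 0.09 for Tgfb3. The SD between arrays of a group was 0.50 in KO and 0.47 in WT for Tgfb1, and 0.39 in KO and 0.40 in WT for Tgfb3. The spread between arrays was thus several times that between spots.

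**Figure D2:**
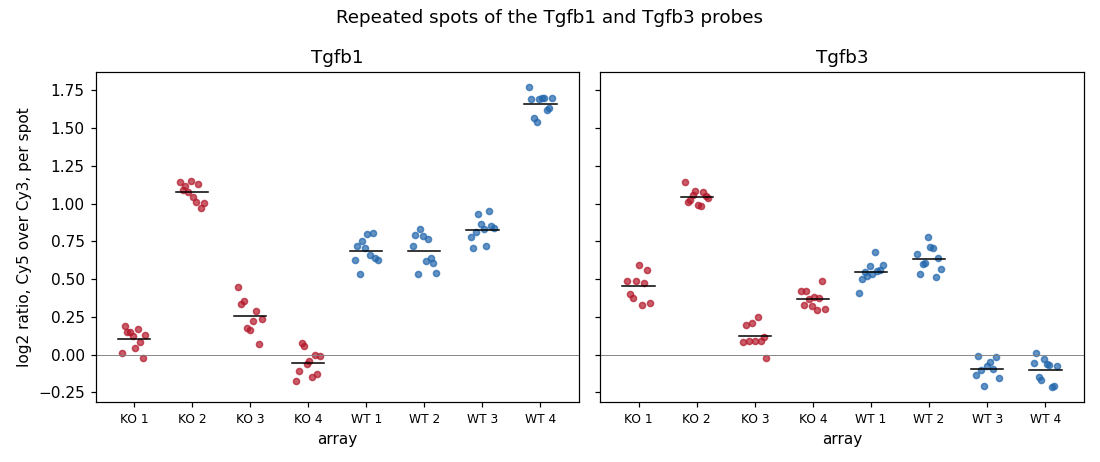
Log2 ratio (vertical axis) of each spot not marked as an outlier, for the Tgfb1 probe (left) and the Tgfb3 probe (right) on each array (horizontal axis), with a bar at the array mean. Spots of an array lie close together, with SDs from 0.05 to 0.11, while array means run from -0.05 to 1.66 for Tgfb1 and from -0.10 to 1.05 for Tgfb3.

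Bmp7 (NM_007557), made by the ureteric bud and needed to keep nephron progenitors, was the BMP gene with the smallest adjusted p. Its log2 ratios were -0.77, -0.84, -0.62 and -0.88 on KO 1 to KO 4, against -0.43, -0.41, -0.36 and -0.73 on WT 1 to WT 4. KO 3 was the one KO array above a WT array, WT 4. The means were -0.78 ± 0.12 in KO and -0.48 ± 0.17 in WT (SD, n = 4 each), a log2 difference of -0.29 ± 0.11 (SE; adjusted p = 0.148, limma), with a 95% interval of -0.53 to -0.06. The log2 difference was -0.31 ± 0.14 in Cy5 alone and 0.04 ± 0.04 in Cy3 alone (SE). It kept its sign in 22 of 22 alternatives, with limma adjusted p from 0.0603 to 0.320. Some of these change only the probes tested or the variance, so they return the same difference and cannot turn its sign. The size of the log2 difference ranged from -0.95 with median centring to -0.20 with scaling between arrays. Median centring also moved the median of all probes to -0.28. Of the nephron progenitor marker probes, 6 of 7 had differences below 0, with a median of -0.69. Over all probes 17225 of 31667 were below 0, with a median of -0.02. The nephron progenitor medians were -0.35, 0.86, 0.25 and 0.44 on KO 1 to KO 4 and 1.15, 1.52, 0.10 and 0.37 on WT 1 to WT 4. The part of these cells in the Bmp7 values was not tested.

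Bmp2 (NM_007553), whose product slows branching of collecting duct cells in culture, had log2 ratios of -0.72, -0.68, -0.82 and -1.23 on KO 1 to KO 4, against -0.70, -0.30, -0.11 and -1.10 on WT 1 to WT 4. In each group the fourth array was the lowest, and the groups overlapped. The log2 difference was -0.31 ± 0.21 (SE; adjusted p = 0.399, limma). It was -0.16 without WT 3, -0.19 without KO 4 and -0.49 without WT 4.

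Bmp4 (NM_007554) differed least among the tested BMP genes. Its brighter probe had log2 ratios of 0.23, -0.01, 0.12 and 0.39 on KO 1 to KO 4, against 0.05, 0.18, 0.10 and -0.05 on WT 1 to WT 4. The groups overlapped, and the log2 difference was 0.11 ± 0.10 (SE; adjusted p = 0.527, limma), with a 95% interval of -0.12 to 0.35. It was 0.044 without KO 4, 0.074 without WT 4 and 0.18 without KO 2. The dimmer Bmp4 probe was well above background on 1 KO array, KO 3, and on 0 WT arrays, so it was not tested and gives no fold.

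Grem1 (NM_011824), the antagonist of these BMPs, did not differ beyond the spread between arrays. Its log2 ratios were -0.13, -0.52, -0.22 and -0.46 on KO 1 to KO 4, against -0.35, -0.39, 0.31 and -0.35 on WT 1 to WT 4. WT 3 stood above the other 7 arrays. The log2 difference was -0.14 ± 0.17 (SE; adjusted p = 0.654, limma), and 0.035 without WT 3 (limma adjusted p = 0.891). The probe was dim, with raw signals of 154 to 297 in Cy5 and 52 to 66 in Cy3. In Cy5 alone the log2 difference was -0.69 ± 0.30 (SE; adjusted p = 0.311, limma), and in Cy3 alone -0.22 ± 0.15 (SE). KO 3 weighed on both, being lowest of all arrays after quantile normalisation, at 6.49 in Cy5 and 6.00 in Cy3. The other KO arrays lay between 7.48 and 7.85 in Cy5 and between 6.58 and 6.70 in Cy3. Before normalisation KO 3 had the highest Cy5 signal, 297. With a background offset of 0 in place of 50 the log2 difference of the ratio was -0.24.

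The 3 Id genes were bright on every array, and none passed the test. Id1 (NM_010495) had log2 ratios of -0.07, 0.13, -0.21 and 0.34 on KO 1 to KO 4, against -0.02, 0.29, -0.43 and 0.37 on WT 1 to WT 4. The KO arrays lay within the wider range of the WT arrays, and the log2 difference was -0.00411 ± 0.18 (SE; adjusted p = 0.992, limma), with a 95% interval of -0.42 to 0.41. Its sign turned in 10 of 22 alternatives, some of which change only the probes tested or the variance and cannot turn it.

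Id2 (NM_010496) had log2 ratios of 0.07, 0.03, -0.06 and 0.37 on KO 1 to KO 4, against -0.34, -0.21, -0.07 and -0.02 on WT 1 to WT 4. KO 3, just below WT 4, was the one KO array within the WT range. The means were 0.10 ± 0.19 in KO and -0.16 ± 0.14 in WT (SD, n = 4 each), a log2 difference of 0.26 ± 0.12 (SE; adjusted p = 0.206, limma). Centring on the median in place of loess, which moved the median of all probes to -0.28, turned it to -0.25. Without KO 4 the log2 difference was 0.17.

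Id3 (NM_008321) had log2 ratios of 0.21, 0.45, 0.10 and 0.36 on KO 1 to KO 4, against 0.23, 0.44, 0.29 and 0.66 on WT 1 to WT 4. The groups overlapped, and the log2 difference was -0.12 ± 0.12 (SE; adjusted p = 0.554, limma), with a 95% interval of -0.39 to 0.14. It was -0.038 without WT 4 and -0.063 without KO 3. The Id genes thus gave 1 difference above 0 and 2 below.

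**Figure D3:**
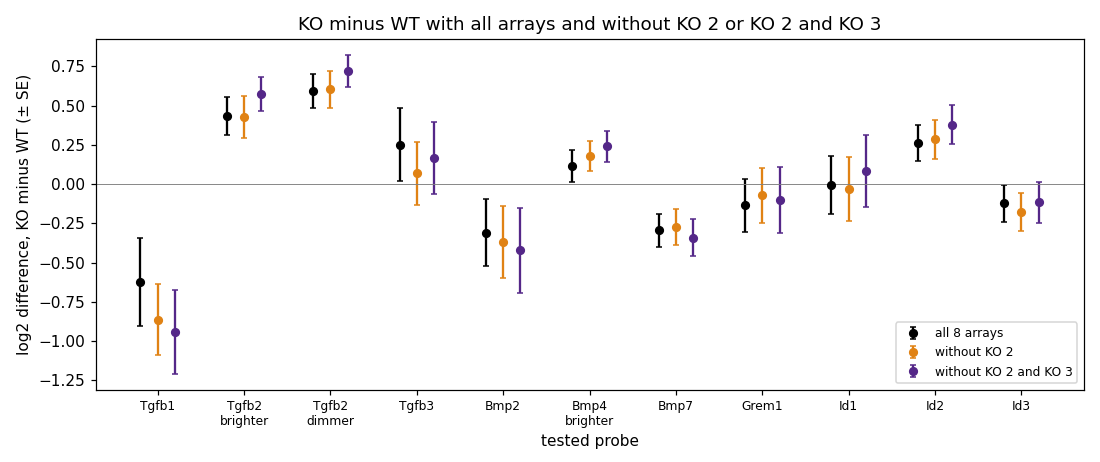
Log2 difference KO minus WT with its SE (vertical axis) for each tested member probe (horizontal axis), from all 8 arrays, without KO 2, and without KO 2 and KO 3. Tgfb1 lies at -0.62, -0.86 and -0.94 and the dimmer Tgfb2 probe at 0.60, 0.60 and 0.72, while Id1 lies at -0.00411, -0.03 and 0.085.

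The array of WT 3 hybridised the same RNA in both dyes, so a log2 ratio away from 0 there is no difference between samples. Over the 31667 probes tested, the median size of that ratio was 0.15 and the 95th percentile 0.56. Tgfb1 read 0.83 on it, a larger size than 98.9% of the tested probes, and Id1 -0.43, larger than 89.1%. Id2, Tgfb3 and Bmp2 read -0.07, -0.09 and -0.11. A shift that is equal on all arrays cancels between KO and WT. The Cy3 channel gave a second check, since it held WT 3 RNA throughout. Between KO and WT arrays, 0 of 11 member probes differed in it by limma's adjusted p, and 1 did at an unadjusted p under 0.05 (the brighter Bmp4 probe, at -0.11 ± 0.05, SE). Over all probes 0 passed (0%), and 1225 were under an unadjusted 0.05, or 3.87%. The SD of the Cy3 log2 intensity over 8 arrays was 0.05 for Bmp7 and 0.07 for Id2, against 0.37 for the dimmer Tgfb2 probe and 0.27 for Tgfb1.

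**Figure D4:**
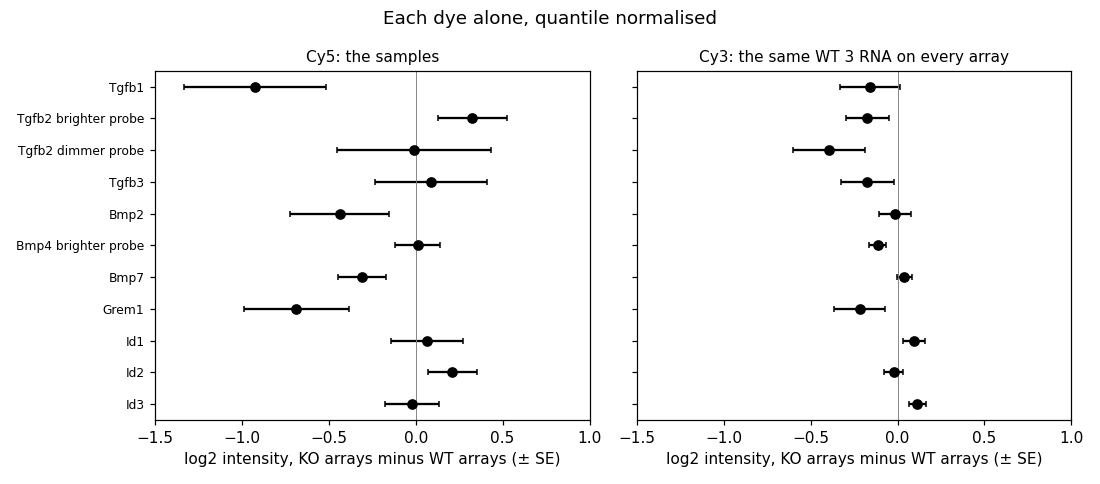
Log2 difference KO arrays minus WT arrays with its SE (horizontal axis) of each tested member probe (vertical axis), from Cy5 alone (left) and from Cy3 alone (right), where the same RNA lay on every array. In Cy3 the dimmer Tgfb2 probe lies at -0.39 and Bmp7 at 0.04. In Cy5 they lie at -0.01 and -0.31.

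The other genes of both pathways were read from 5 lists, and none of their probes passed with all arrays. In limma's test 0 probes were called in each list, against 0.00632% of all probes, and the list medians lay between -0.07 and 0.03, beside -0.02 over all probes. Without KO 2, the share called over all probes was 9.71% higher and 11.4% lower in KO. In that comparison 0 of 11 probes of other ligands, 3 of 18 of receptors, 1 of 12 of Smads, 4 of 24 of inhibitors and modulators and 2 of 18 of targets were called.

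Among receptors, Bmpr2, the type II receptor of BMPs, had the smallest p. Its log2 ratios were -0.07, -0.07, -0.09 and -0.26 on KO 1 to KO 4, against 0.23, 0.26, 0.33 and 0.20 on WT 1 to WT 4. All KO arrays lay below all WT arrays, KO 2 included, as for 7.82% of all probes with complete values. The log2 difference was -0.38 ± 0.08 (SE; adjusted p = 0.101, limma), and -0.40 without KO 2 (limma adjusted p = 0.0134). By the brightest tested probe of each gene, Acvr2a, Tgfbr1 and Acvr1c came next. They had log2 differences of 0.21 ± 0.09, 0.18 ± 0.10 and 0.18 ± 0.11 (SE), with overlapping groups. A dimmer Tgfbr2 probe, at -0.52, had a smaller adjusted p than any of them (limma adjusted p = 0.132), against 0.04 at its brightest probe. The other tested probes of Acvr2a and Tgfbr1 had -0.03 and -0.27, so the probes of each gene disagreed in sign. That of Tgfbr1, a type I TGF-beta receptor gene, was called without KO 2, at -0.37 (limma adjusted p = 0.0352).

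No probe of the Smad genes, which carry the signal to the nucleus, passed the test with all arrays. Smad9 and Smad5, of the BMP branch, had log2 differences of 0.16 ± 0.10 and 0.17 ± 0.11 (SE), with -0.05 at the other tested probe of Smad5, and the inhibitory Smad6 and Smad7, which both pathways induce, 0.10 ± 0.09 and 0.08 ± 0.09 (SE). Their limma adjusted p ranged from 0.345 to 0.636. A dimmer Smad3 probe had a smaller one, at a log2 difference of -0.38 (limma adjusted p = 0.108), with -0.03 at its brightest probe. Of the 11 Smad probes with complete values, 1 did not overlap, lower in KO, against 7.82% of all complete probes. Among other ligands the 4 with the smallest p were Gdf11, Bmp8a, Bmp3 and Gdf15, at -0.22 ± 0.11, 0.22 ± 0.12, -0.19 ± 0.13 and 0.39 ± 0.31 (SE). All 4 overlapped between KO and WT arrays.

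Inhibitors and modulators of the ligands had 11 probes above 0 and 13 below, with a median of -0.07, the lowest of the 5 lists, and none past the test. At the brightest tested probe of each gene, the 4 genes with the smallest p all had differences above 0. A dimmer Smurf2 probe, at -0.40, had a smaller adjusted p than any of them (limma adjusted p = 0.120). Ltbp3 and Ltbp2, of the family of latent TGF-beta binding proteins, had log2 differences of 0.31 ± 0.10 and 0.43 ± 0.15 (SE). The other tested probe of Ltbp3 gave 0.29, while the remaining members of that family lay below 0, Ltbp1 at -0.27 and Ltbp4 at -0.06. The follistatin-like gene Fstl1 had 0.33 ± 0.14 and the BMP antagonist gene Chrd 0.21 ± 0.09 (SE). Fstl1 passed without KO 2, at 0.45 (limma adjusted p = 0.0183).

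Targets had differences in both directions, none past the test with all arrays. Cdkn2b, a cyclin-dependent kinase inhibitor gene induced by TGF-beta, had log2 ratios of 1.21, 1.21, 0.21 and 0.81 on KO 1 to KO 4, against 0.29, -0.25, -0.11 and -0.23 on WT 1 to WT 4. KO 3 alone lay within the WT range, below WT 1. The log2 difference was 0.93 ± 0.22 (SE; adjusted p = 0.107, limma), with 0.45 at its other tested probe, and 0.82 without KO 2 (limma adjusted p = 0.0330). Ski, which encodes a corepressor of Smads, had -0.31 ± 0.09 (SE; adjusted p = 0.119, limma), with no overlap, and passed without KO 2 at -0.38 (limma adjusted p = 0.0147). Tgif1, another corepressor gene, had 0.30 ± 0.10 (SE) and no overlap, and Ccn2, a matricellular gene induced by TGF-beta, 0.52 ± 0.23 (SE) with overlap. Neither passed (limma adjusted p = 0.135 and 0.207). Of the 18 target probes with complete values, 1 was higher and 1 lower in KO without overlap. That is 11.1%, near the 11.4% of all complete probes.

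**Figure D5:**
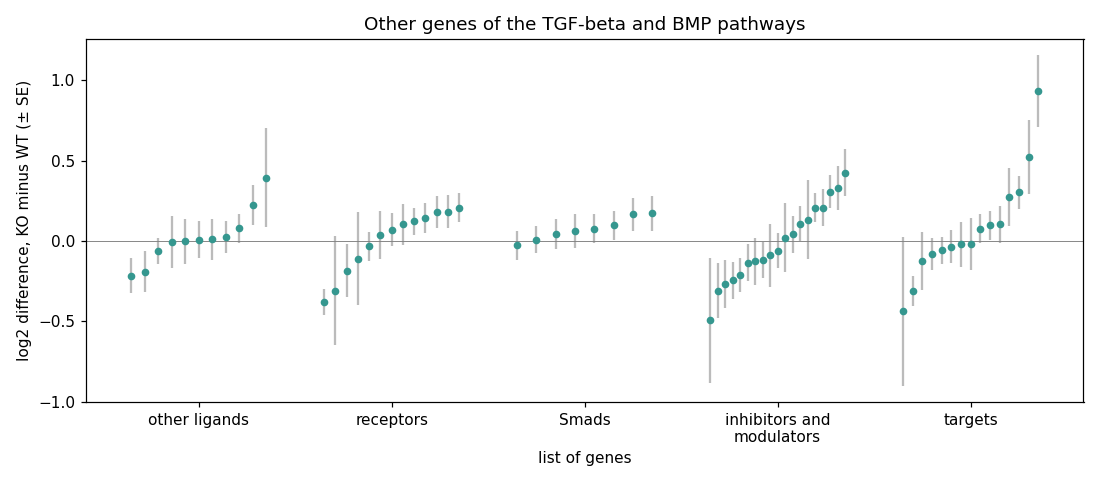
Log2 difference KO minus WT with its SE (vertical axis) of the brightest tested probe of each gene, sorted within each of 5 pathway lists (horizontal axis), from all 8 arrays. Most genes lie near 0, with Cdkn2b at 0.93 the highest among targets and Bmpr2 at -0.38 the lowest among receptors.

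Likeness of profile was measured as the root mean square difference between log2 ratios over the 8 arrays, after each profile was centred on its mean. For Tgfb2, at its brighter probe, the closest genes were Mff, Cdc37l1 and Ddx58 at 0.0777, 0.0797 and 0.0822, and the closest other member was Id2 at 0.138, nearer than all but 0.548% of the probes. For Id3 the closest were Smurf1, a gene of a ubiquitin ligase that acts on Smads, at 0.0436, Foxo1 at 0.0463 and Cttnbp2nl at 0.0491. The member nearest to Id3 was Id1, at 0.187, with 29.5% of probes nearer. For Id1 the closest genes were Cacna1g, Tubgcp6 and Tbc1d10a at 0.105, 0.110 and 0.114. The member nearest to Id1 was Id3, nearer than all but 0.931% of the probes. For Id2 the closest genes were Vav2, Gigyf1 and Tshz3 at 0.0640, 0.0677 and 0.0727. For Tgfb1, which had the widest range of the members (1.72), they were Gchfr, Cavin3 and Tcf15 at 0.126, 0.127 and 0.156. For Bmp7 they were Repin1, Lamc3 and Secisbp2l at 0.0563, 0.0609 and 0.0646, with Grem1 the nearest member at 0.219 and 31.9% of probes nearer. Bmp4 was closest to Pitrm1, Plpp5 and Fhl3 at 0.0438, 0.0444 and 0.0469, and Grem1 to Tenm2, Klk1b9 and Spire1 at 0.0990, 0.106 and 0.107. Bmp2 was closest to Pianp, Cdh4 and Klhdc9 at 0.111, 0.130 and 0.135, and Tgfb3 to Zfp975, Defb29 and Mycn, a transcription factor gene, at 0.149, 0.159 and 0.159. The nearest member to Bmp2 was Bmp7 at 0.232, with 1.15% of probes nearer. For Id2, Grem1, Tgfb1, Bmp4 and Tgfb3, the share of probes nearer than the nearest member was 3.02%, 6.04%, 11.2%, 20.6% and 34.1%. All points share the slide, the reference RNA and the sample arrays.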

How the data were processed

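RNA of 8 samples was read on 8 two-colour Agilent arrays of 1 slide. Each deposited file gives spot intensity in both dyes. The submitters' processing notes name Agilent Feature Extraction 10.7.3.1 as the authors' software. The files also hold a log10 ratio that the authors' software normalised, per the file headers, and the deposited series value table is on that log10 scale. Median spot and background intensities were used.

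Background was corrected by normexp (offset 50) and log2 ratios were normalised by loess per array (weight 0 for control spots) with limma 3.58.1 (R 4.3.3, jsonlite 2.0.0; figures in matplotlib 3.10.9, Python 3.11.15). Spots marked as outliers were dropped, leaving at least 9 of 10 spots where a member was repeated. A probe entered if well above background in Cy5 on at least 4 of 8 arrays, with values on at least 3 arrays per group. Names were matched to RefSeq (21717 of 37850). limma's lmFit and eBayes gave 2-sided tests of KO against WT, adjusted by Benjamini-Hochberg over 31667 probes at 0.05. The number of arrays limits the precision, and the spread behind each p-value is that between these 8 preparations, which may be technical.

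Members and lists were chosen with earlier results of these data known. Named are all members, Dot1l and Hoxb7, from each pathway list up to 4 genes with the smallest p, and the 3 genes closest in profile to a member. Pathway genes were ranked by their brightest tested probe. Hoxb7 had a log2 difference of -0.71 ± 0.08 (SE; adjusted p = 0.0638, limma). Its log2 ratios were -0.59, -0.53, -0.64 and -0.79 on KO 1 to KO 4, against 0.11, 0.07, 0.04 and 0.05 on WT 1 to WT 4. All KO arrays, KO 2 included, lay below all WT arrays, as for 7.82% of all probes with complete values. The fit was tested on simulated data. The alternatives tried are given in the closing section. Same-numbered arrays did not deviate together, with correlations of -0.21, 0.05, 0.11 and -0.01 over replicates 1 to 4, so the number (also the slide column) was not taken as a pairing.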

Additional observations from a re-analysis of the deposited data

Results flagged for a closer look

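2 of the 22 sets of 4 arrays tested among the members held an array far from the other 3, where chance gives about 5% of sets. Tgfb1 read 1.66 on WT 4, far above the other WT arrays (0.68 to 0.83), and its log2 difference without that array was -0.39. Grem1 read 0.31 on WT 3, the array with the same RNA in both dyes, while the other WT arrays lay between -0.39 and -0.35.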

How the results depend on the processing

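The count of all probes called was 2 with all arrays. It was 1 with offset 0 and with no background subtraction, 0 with median centring, with Cy5 alone and with the replicate block, 5 with the scanner's ratio and with the series value table, 6 with scaling between arrays, 4 with no filter, 19 with an intensity trend and robust fit, 5837 with array weights and 7436 without KO 2 and KO 3. Leaving out 1 array gave 1 to 6692 (6692 without KO 2, 8 without KO 3, 4 without WT 3). The count of member probes called was 0, but 2 with array weights (both of Tgfb2), 3 without KO 2 and KO 3, and 0 to 2 with 1 array left out. The replicate block called 0 member probes.

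Log2 differences turned sign for Id1 with offset 0 (0.017), no background subtraction (0.00936), Cy5 alone (0.062), scaling (0.00333), array weights (0.011), and without KO 2 and KO 3 (0.085); with 1 array left out Id1 ranged from -0.165 to 0.102, above 0 without KO 1, KO 3, WT 2 or WT 4. They also turned for Tgfb3 (-0.024), Bmp4 (-0.313) and Id2 (-0.245) with median centring, the dimmer Tgfb2 probe with Cy5 alone (-0.011), and Grem1 without WT 3 (range -0.202 to 0.035 with 1 array left out). Each cause was not tested. Tgfb1, the brighter Tgfb2 probe, Bmp2, Bmp7 and Id3 kept their sign in all 22 alternatives. These are not 22 separate checks. Changing the filter, keeping the brightest probe, the trend and robust fit and the replicate block return the same difference. The scanner's ratio and the series value table hold nearly the same values. Slide row as a block was not run, since each row holds 1 group. Signal over background limits the dimmer Bmp4 probe.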

Other observations

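Without KO 2, further pathway probes were called that the naming rule does not reach, chosen after their values were seen. Over all probes, 21.1% were called in that comparison, and 11.4% were called lower in KO, the direction of those listed here. Nog and Nbl1, genes of BMP antagonists, had log2 differences of -0.33 and -0.47 (limma adjusted p = 0.0472 and 0.0314), against -0.25 and -0.31 with all arrays, where neither passed. The dimmer Tgfbr1 probe, at -0.37 (limma adjusted p = 0.0352), was called too. A dimmer probe of the TGF-beta receptor gene Tgfbr2 had -0.67 without KO 2 (limma adjusted p = 0.0113), whereas its brightest probe had 0.00894 there. A dimmer probe of Smad3 had -0.42 (limma adjusted p = 0.0169) against -0.04 at its brightest, and one of the ubiquitin ligase gene Smurf2 had -0.47 (limma adjusted p = 0.0243) against 0.12, all without KO 2. With all arrays none of these 3 dimmer probes passed, at -0.52 for Tgfbr2, -0.38 for Smad3 and -0.40 for Smurf2.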
